A study of Homo sapiens with 4 samples.

Results

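Fulvestrant added on top of neratinib was read as the library of BT474 cells that received both drugs against the library that received neratinib alone. Cells were barcodes with at least 5000 UMIs, at least 500 detected genes and at most 50% of UMIs from the 13 mitochondrial genes. This gave 7233 cells, 3800 with both drugs and 3433 with neratinib, of 14867 cells in all 4 libraries. BT474 is an established human breast cancer line that carries the estrogen receptor and an amplified ERBB2 (HER2) gene. All cells were treated for 4 h: with the vehicle DMSO, with 100 nM fulvestrant, with 200 nM neratinib, or with 100 nM fulvestrant and 200 nM neratinib together. Each treatment was 1 library of 1 cell line, so every difference below lacks a replicate check, no gene was tested, and cells did not serve as replicates.

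The estrogen receptor, encoded by ESR1, is a hormone-activated transcription factor that binds enhancers and drives growth genes in luminal breast cancer cells. Fulvestrant is a steroidal antagonist that binds the receptor and leads to its degradation. Neratinib binds the HER family kinases EGFR, HER2 and HER4 covalently and blocks them; their signalling also feeds growth genes. The comparison asks which transcripts differ with receptor antagonism in cells that receive neratinib at the same time. The drugs were given together, so the words on top of neratinib name this comparison and not an order of treatment.

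The libraries were of like depth. The cells held 90314413 UMIs with both drugs and 82173894 with neratinib, with medians of 22203 and 22450 UMIs and of 4202 and 4215 genes per cell. The median mitochondrial share per cell was 21.0% in both of these libraries, against 16.2% with DMSO and 16.6% with fulvestrant. There were 4 cell barcodes shared between the both-drug and neratinib libraries. Of the 14 BT474 luminal markers read, ERBB2 stood at 951 CPM (UMIs scaled to an equal library total) with neratinib and 908 with both drugs, and KRT19 at 1543 and 1106. Summed immune markers came to 1.75 and 1.65 CPM, with CD3D, CD3E, CD2, FCGR3A and NKG7 at 0. Endothelial markers came to 2.51 and 2.24 with TEK at 0, fibroblast markers to 66.0 and 65.0, and basal and mesenchymal markers to 9.83 and 10.4 with ZEB2 at 0.

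Genes were lower more often and by more than they were higher. There were 9000 genes with a mean of at least 5 CPM over the 2 libraries, and a gene was counted where its CPM was at least 25% above or 20% below that of the other library, with a 95% counting interval off 0. By that size rule 107 genes were lower with both drugs than with neratinib (1.19% of those read) and 35 were higher (0.389%), 142 in all (1.58%). At 1.5-fold 35 genes were lower and 0 higher, and at 2-fold 13 were lower. The median log2 ratio over the 9000 genes was 0.01, and the central 98% lay between -0.35 and 0.26. The intervals are exact conditional binomial intervals of the UMI sums and cover counting error only. The split depended on which cells entered: among the 1463 and 1317 cells with at most 20% mitochondrial UMIs, 133 genes were lower and 113 higher, so the higher share of the genes past the rule was 45.9% instead of 24.6%. All 142 genes kept their sign there, and 92 of the 107 and 26 of the 35 were past the rule again. These cells are part of the cells that chose the 142 genes, so this is not a separate check.

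**Figure D1:**
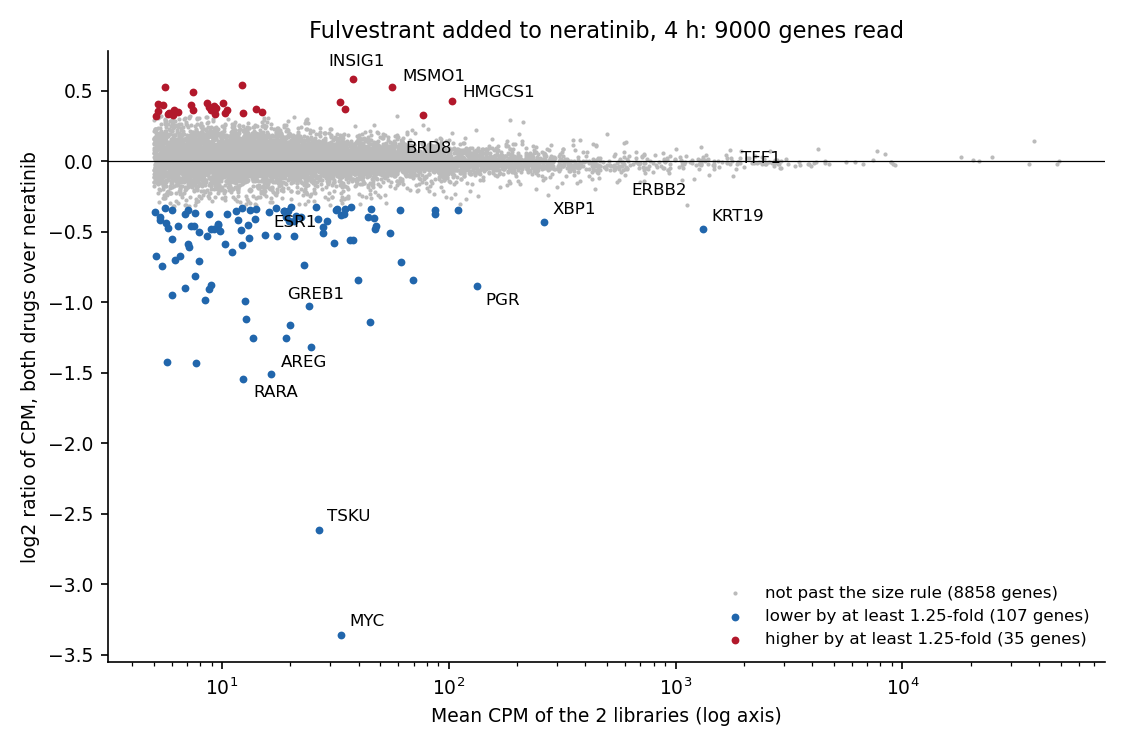
Each point is 1 of 9000 genes, placed by its mean CPM over the both-drug and neratinib libraries (log axis) and its log2 ratio of both drugs over neratinib; coloured points are the 107 lower and 35 higher genes. MYC at -3.36 and TSKU at -2.61 lie far below the rest, and the highest points stay under 0.6.

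The genes with the lowest ratios were led by MYC, the transcription factor that drives cell growth and ribosome production. MYC stood at 75.9 CPM under DMSO, 15.7 under fulvestrant, 60.8 under neratinib and 5.93 under both drugs. The neratinib library was thus close to the DMSO library, and both libraries with fulvestrant were far below them. Against neratinib, MYC was 10.2-fold lower, a log2 ratio of -3.36 [-3.49, -3.23] from 4997 and 536 UMIs, and against DMSO fulvestrant alone gave -2.28 [-2.36, -2.19]. These 2 ratios share no library, and the difference between them was not tested here, nor was it for any gene below.

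TSKU, which encodes the secreted proteoglycan tsukushi, came next. It stood at 56.8 CPM under DMSO, 17.4 under fulvestrant, 46.1 under neratinib and 7.53 under both drugs, a log2 ratio to neratinib of -2.61 [-2.73, -2.50]. RARA, the retinoic acid receptor alpha, had 25.0, 11.1, 18.5 and 6.36 CPM in the same order, and its ratio to neratinib was -1.54 [-1.68, -1.40]. For both genes the both-drug library was the lowest of the 4.

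AREG, the EGFR ligand amphiregulin, was lower with each drug alone and lowest with both. Its levels were 69.5 CPM under DMSO, 35.9 under fulvestrant, 24.3 under neratinib and 8.54 under both drugs. The ratio of both drugs to neratinib was -1.51 [-1.63, -1.39], and that of fulvestrant to DMSO was -0.96 [-1.02, -0.89]. CCND1, which encodes cyclin D1, the partner of CDK4 and CDK6, showed the same order of libraries, at 315, 246, 45.2 and 30.7 CPM. Most of the difference in CCND1 was between the libraries without and with neratinib, and the step from neratinib to both drugs was -0.56 [-0.63, -0.49].

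A second set of low genes did not follow that order, because the neratinib library was at or above the DMSO library. MSX2, a homeobox transcription factor, stood at 35.3 CPM under DMSO, 16.1 under fulvestrant, 35.1 under neratinib and 14.1 under both drugs, -1.32 [-1.41, -1.22] against neratinib. C6orf141 stood at 29.95, 18.2, 62.0 and 28.1 CPM, so that its both-drug level was near its DMSO level while its ratio to neratinib was -1.14 [-1.21, -1.07]. PPM1K, a mitochondrial phosphatase of branched-chain amino acid breakdown, had 16.03, 6.56, 32.4 and 15.9 CPM and a ratio of -1.02 [-1.12, -0.93]. NPY1R, a receptor for neuropeptide Y, had 13.1, 9.51, 19.3 and 8.06 CPM and a ratio of -1.26 [-1.38, -1.13]. The remaining genes of the lowest 14 were PMAIP1 (NOXA, a pro-apoptotic BCL2 family member, -1.26), ZNF703 (a luminal transcriptional regulator, -1.16), STARD13 (a RhoGAP, -1.12), MPPED2 (-0.99), PGR (-0.89) and SIAH2 (-0.85).

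**Figure D2:**
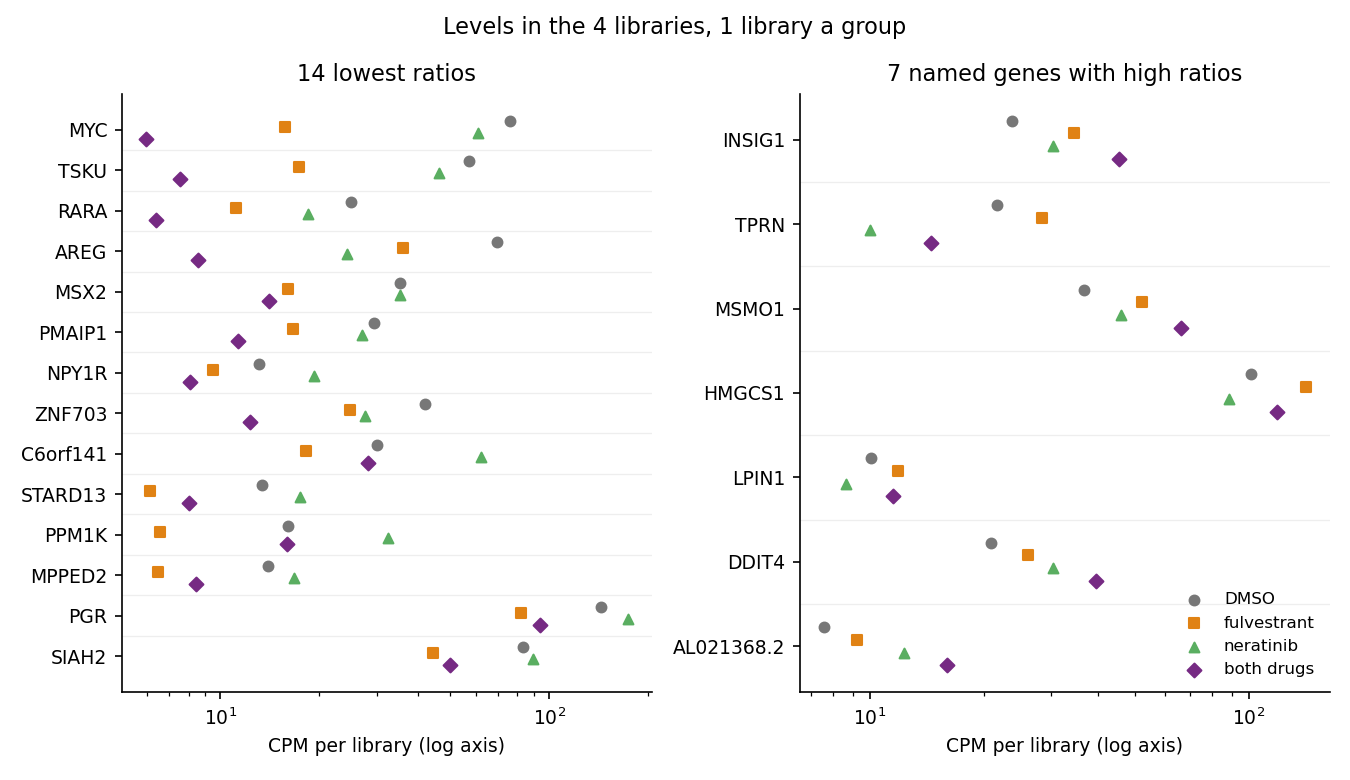
CPM per library (log axis) of the named genes in the DMSO, fulvestrant, neratinib and both-drug libraries, 1 point a library, with the lower genes in 1 panel and the higher genes in the other. MYC and TSKU are lowest with both drugs, at 5.93 and 7.53 CPM, while PPM1K and C6orf141 with both drugs sit near their DMSO levels.

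Known estrogen receptor targets were often lower. Of 77 listed targets 56 were read, and 26 of them were lower by the size rule and 0 higher, with a median log2 ratio of -0.25. The share lower was 46.4%, beside 1.19% of all genes read, and the list was drawn up with earlier results of these libraries known. The list supplied 26 of the 107 lower genes, and 67 of the 107 were in none of the 33 lists. In the pair of fulvestrant against DMSO, 21 of the same 56 were lower (37.5%, beside 1.09% of all genes read). There 1 was higher (1.79%, beside 0.367%), and the median was -0.23.

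The classical marker genes of receptor activity were not equally low. PGR, the progesterone receptor, stood at 143 CPM under DMSO, 81.9 under fulvestrant, 173 under neratinib and 93.6 under both drugs, a ratio to neratinib of -0.89 [-0.93, -0.85]. GREB1, a receptor cofactor and early target, had 42.2, 22.3, 51.0 and 28.5 CPM and a ratio of -0.84 [-0.91, -0.77]. TFF1, a secreted trefoil peptide, had 2137, 1942, 1857 and 1728 CPM, and its ratio of -0.10 [-0.11, -0.09] did not reach the size rule. TFF3 was at 1514 and 1452 CPM with neratinib and with both drugs, a ratio of -0.06, so both abundant trefoil transcripts differed by little while PGR was 1.85-fold and GREB1 1.79-fold lower.

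Other listed targets that were lower included STC2, the secreted glycoprotein stanniocalcin 2, at 16.8, 8.89, 8.32 and 3.1 CPM in the order of libraries used above. Its ratio to neratinib was -1.42 [-1.63, -1.22], and -1.09 in the cells with at most 20% mitochondrial UMIs. XBP1, a transcription factor of the secretory pathway, stood at 468, 398, 301 and 223 CPM with a ratio of -0.43 [-0.46, -0.41]. At the other end of the list, RBBP8 had a ratio of 0.12, ABCA3 of 0.15 and SLC27A2 of 0.22. CTSD, the lysosomal protease cathepsin D, was at 58.0 and 59.5 CPM.

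ESR1 transcript itself was lower, at 14.6 CPM under DMSO, 11.98 under fulvestrant, 18.2 under neratinib and 12.7 under both drugs. The ratio to neratinib was -0.52 [-0.64, -0.41], and to DMSO without neratinib -0.29 [-0.40, -0.17]. Among the 25 genes of ESR1 and its cofactors, 0 were higher, the median was -0.00, and 5 were lower (20%, beside 1.19% of all genes read). These were PGR, GREB1, ESR1, XBP1 and NRIP1, a corepressor, and 4 of them are also in the target list. The pioneer factor FOXA1 stood at 138 and 142 CPM, a ratio of 0.05, and the coactivator NCOA3 at 305 and 315 CPM, also 0.05. GATA3, a luminal transcription factor, had a ratio of 0.08 [0.05, 0.12] on top of neratinib and of 0.37 [0.34, 0.39] for fulvestrant over DMSO, with 221, 285, 135 and 144 CPM in the 4 libraries.

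**Figure D3:**
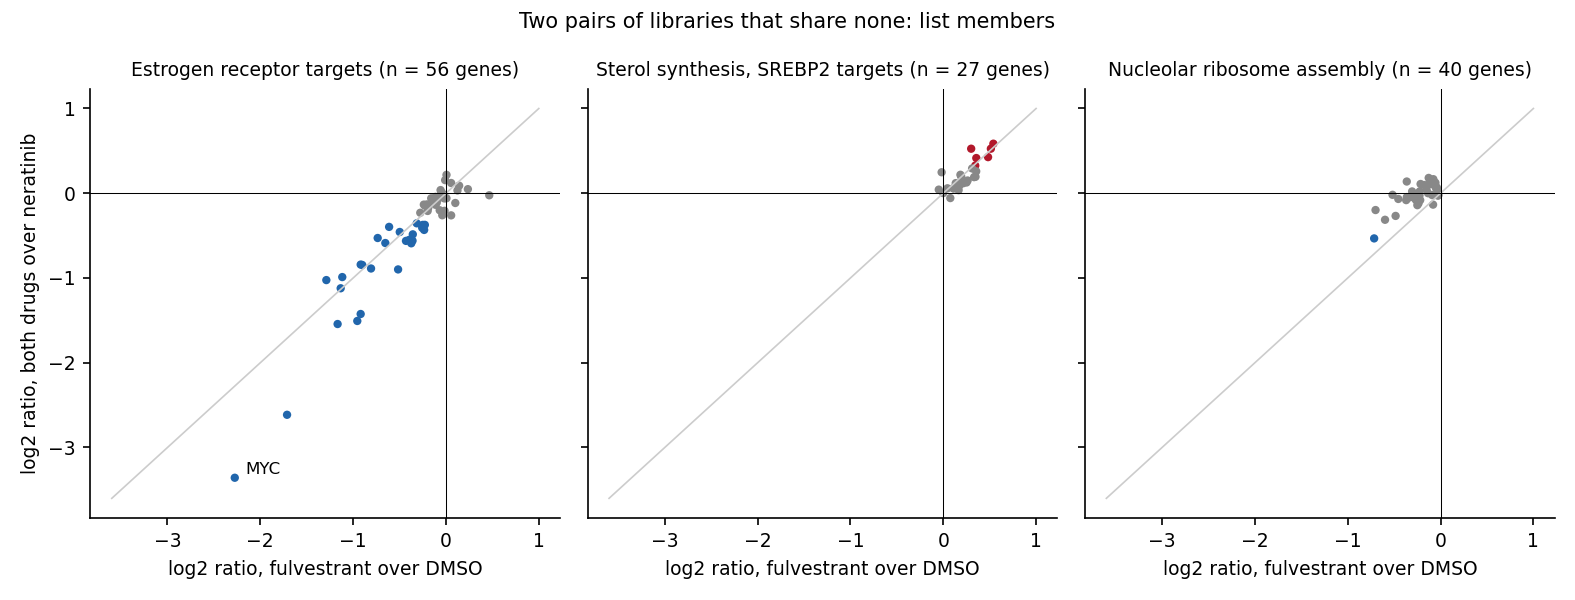
Members of the estrogen target, sterol and ribosome assembly lists, each point 1 gene, with the log2 ratio of fulvestrant over DMSO on the horizontal axis and of both drugs over neratinib on the vertical axis; the axes share no library. Estrogen targets reach down to MYC at -2.28 and -3.36, sterol genes lie mostly above 0 on both axes, and ribosome assembly genes are low mainly on the horizontal axis.

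Genes of sterol synthesis made up the clearest group on the higher side. The pathway makes cholesterol from acetyl-CoA and is switched on by the transcription factor SREBP2 when membrane sterol is low. Of 29 listed genes 27 were read, and 6 were higher and 0 lower by the size rule, with a median of 0.15. That is 22.2% of the list, beside 0.389% of all genes read, and 6 of the 35 higher genes. In the fulvestrant and DMSO pair, 8 of the 27 were higher (29.6%, beside 0.367% of all genes read) and 0 lower, with a median of 0.19.

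The upstream promoter bases of 3 of these genes are shown because they were higher together and each holds a CCAAT box, the recognition sequence of the factor NF-Y. They are the 250 bases before the annotated start in RefSeq, build GRCh38.p14: INSIG1 at chr7:155297628-155297877 on the plus strand, MSMO1 at chr4:165327419-165327668 on the plus strand and HMGCS1 at chr5:43313413-43313662 on the minus strand. Capitals mark CCAAT or its reverse complement ATTGG.
INSIG1: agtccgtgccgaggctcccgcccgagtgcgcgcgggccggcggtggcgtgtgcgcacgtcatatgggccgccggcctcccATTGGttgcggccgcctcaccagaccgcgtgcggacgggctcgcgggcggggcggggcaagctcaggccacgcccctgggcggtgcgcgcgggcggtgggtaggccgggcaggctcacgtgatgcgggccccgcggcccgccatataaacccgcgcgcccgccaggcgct
MSMO1: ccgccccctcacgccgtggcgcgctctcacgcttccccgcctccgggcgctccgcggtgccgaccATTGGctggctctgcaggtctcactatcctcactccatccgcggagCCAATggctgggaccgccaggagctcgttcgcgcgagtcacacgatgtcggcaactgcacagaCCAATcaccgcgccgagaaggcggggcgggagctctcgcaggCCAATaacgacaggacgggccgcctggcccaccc
HMGCS1: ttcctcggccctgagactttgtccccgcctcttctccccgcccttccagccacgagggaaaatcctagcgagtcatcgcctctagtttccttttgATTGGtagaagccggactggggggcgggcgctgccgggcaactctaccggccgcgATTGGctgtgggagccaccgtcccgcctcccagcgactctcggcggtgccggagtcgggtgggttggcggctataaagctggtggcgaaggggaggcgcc
INSIG1 held 1 match, MSMO1 4 and HMGCS1 2. Counted on both strands, CCAAT was in 16 of the 21 sterol list promoters found in the table (76.2%), in 33.0% of all 27305 promoters and in 36.7% of the 7160 that belong to genes read here. Of the genes higher by the size rule, 14 of 21 with a promoter held it (66.7%), and of those lower 25 of 80 (31.3%). The palindrome GGTCANNNTGACC, the full estrogen response element, was in 12 of all promoters, in 0 of the 80 lower genes and in 0 of the 21 higher genes. The E-box CACGTG was in 3 of the 80 lower (3.75%) and 3 of the 21 higher genes (14.3%), in 2 of the 21 sterol list promoters, INSIG1 among them, and in 9.61% of the promoters of genes read. An exact form of the sterol regulatory element, the motif that SREBP2 binds, was in 1 of the 21 sterol list promoters, in 0 of the 21 higher genes and in 10 of all promoters. The letters were searched with results of these libraries known, a match is a description only, and enhancers were not searched.

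INSIG1, the sterol sensor that holds SREBP2 in the endoplasmic reticulum and is itself a target, was the highest of the ranked genes. It stood at 23.7 CPM under DMSO, 34.5 under fulvestrant, 30.4 under neratinib and 45.5 under both drugs, a ratio to neratinib of 0.58 [0.51, 0.66]. MSMO1, a methyl sterol oxidase, had 36.7, 52.3, 45.9 and 66.0 CPM and a ratio of 0.53 [0.47, 0.59]. For both genes each library with fulvestrant was above its counterpart without it, and the both-drug library was the highest of the 4.

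HMGCS1, an early enzyme of the pathway, had 101, 141, 88.4 and 119 CPM and a ratio of 0.43 [0.38, 0.47]. CYP51A1, a lanosterol demethylase, stood at 4.60 CPM with neratinib and 6.62 with both drugs, a ratio of 0.53 with the wide interval [0.34, 0.72]. SREBF2, which encodes SREBP2, was at 30.2 and 29.01 CPM, a ratio of -0.06 [-0.14, 0.02]. Fatty acid synthesis, with 22 genes read, had 1 higher gene (4.55%, beside 0.389% of all genes read), the phosphatidate phosphatase LPIN1 at 0.41. The list median was 0.03.

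The other genes among the 14 highest were scattered over functions. TPRN, the hair cell protein taperin, was at 9.97 and 14.5 CPM, a ratio of 0.54 [0.41, 0.67]. DDIT4, an inhibitor of mTORC1, was at 30.5 and 39.4 CPM with a ratio of 0.37 [0.30, 0.44], and 0.60 in the cells with at most 20% mitochondrial UMIs. DTL, a replication-linked ubiquitin ligase adaptor, had 0.36, the arrestin-like ARRDC3 0.34, the homeobox gene DLX3 0.35 and the transcript AL021368.2 0.37. DLX3 was at 0.26, below the size rule, in the cells with at most 20% mitochondrial UMIs. ARRDC3 was at 0.318, just below it, when both libraries were given the same phase weights. ME2, mitochondrial malic enzyme, had 0.34, but 0.18 in the low-mitochondrial cells. CRIP1 had a ratio of 0.32 and lay just short of the size rule.

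Genes of growth factor receptor signalling held several lower members. Of 30 genes of PI3K, AKT, mTOR and insulin signalling read, 6 were lower (20%, beside 1.19% of all genes read) and 1 was higher (DDIT4; 3.33%, beside 0.389%), with a median of -0.02. IRS1, the adaptor of the insulin and IGF1 receptors, stood at 10.3 CPM under DMSO, 8.69 under fulvestrant, 11.6 under neratinib and 6.30 under both drugs, a ratio of -0.88 [-1.03, -0.72] to neratinib. The ratio of fulvestrant to DMSO for IRS1 was -0.24 [-0.38, -0.10]. The regulatory subunit PIK3R1 had 22.8, 17.8, 13.5 and 8.61 CPM and a ratio of -0.65 [-0.78, -0.51].

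The kinase SGK3 (-0.56), the phosphatase INPP4B (-0.51), the mTOR inhibitor DEPTOR (-0.42) and the receptor IGF1R (-0.40) were the other 4. IGF1R had 24.8, 16.2, 50.2 and 38.1 CPM, so that fulvestrant went with a lower level both with and without neratinib, while both neratinib libraries were above DMSO. The 6 lower genes include positive members of the pathway (IRS1, SGK3, IGF1R) and inhibitors (INPP4B, DEPTOR). SGK3 and IGF1R are also in the estrogen target list, so they are counted there as well.

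Genes of the HER family were little different. ERBB2 stood at 973 CPM under DMSO, 1016 under fulvestrant, 951 under neratinib and 908 under both drugs, a ratio of -0.07 [-0.08, -0.05]. ERBB3 had a ratio of -0.03, EGFR of 0.05 and ERBB4 of -0.00. AREG was the 1 member of 13 past the size rule (7.69% lower, beside 1.19% of all genes read). Only 4 of 23 ERK output genes reached the level to be read. CCND1 was the 1 lower member (25% of the 4, beside 1.19% of all genes read). Among 23 immediate early genes, KLF10 at -0.70 [-0.88, -0.52] and FOSL2 at -0.39 [-0.49, -0.30] were lower and 0 were higher. The lower share was 8.70%, beside 1.19% of all genes read.

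BRD8, the bromodomain protein of the series title, which sits in the TIP60 histone acetyltransferase complex, did not differ beyond counting error over all cells. It stood at 23.3 CPM under DMSO, 22.4 under fulvestrant, 59.0 under neratinib and 58.9 under both drugs. Both libraries with neratinib stood above both without it, and the ratio on top of neratinib was -0.00 [-0.06, 0.06]. Of the 26 genes of the TIP60 complex and BET proteins read, 0 passed the size rule in either direction, and their median was 0.00. Over all genes read 1.58% passed it, so a count of 0 does not set a list of this size apart. The catalytic subunit KAT5 had -0.11 and the BET protein BRD2 0.22, the ends of the list.

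Genes that assemble ribosomes in the nucleolus, many of them MYC targets, had few lower members on top of neratinib. Of 40 read, 1 was lower with both drugs than with neratinib, RRS1 at 10.1 and 6.998 CPM (-0.53 [-0.68, -0.38]), and the median was -0.02. In the pair of fulvestrant against DMSO, 10 of the 40 were lower, 0 higher, and the median was -0.23. These are 2.5% of the list on top of neratinib, near the 1.19% of all genes read, and 25.0% without neratinib, beside 1.09%. NOP16 stood at 27.4 CPM under DMSO, 16.8 under fulvestrant, 9.84 under neratinib and 8.58 under both drugs. Its ratio was -0.70 [-0.79, -0.61] without neratinib and -0.20 [-0.34, -0.05] on top of it.

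LYAR had 33.0, 23.03, 13.5 and 13.3 CPM, with ratios of -0.52 and -0.02, and NOC3L had 31.7, 24.6, 16.9 and 18.6 CPM, with ratios of -0.36 and 0.14. For these 3 genes the neratinib library was already below the fulvestrant library. The list of MYC-linked metabolism had 27 genes read, with medians of -0.00 on top of neratinib and -0.07 with fulvestrant alone. On top of neratinib 0 passed the size rule, beside 1.58% of all genes read. With fulvestrant alone 2 were lower, 7.41% of the list beside 1.09%. Whether the ribosome assembly list differed between the pairs was not tested, and each pair is 1 library a side.

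Across the 2 pairs that share no library, 54 genes were lower in both. They made up 50.5% of the 107 lower on top of neratinib and 55.1% of the 98 lower with fulvestrant over DMSO, where 1.09% of the same 9000 genes were lower. A further 48 of the 107 had the same sign without passing the rule. How many of all genes read had the same sign in both pairs was not counted. Of the 107, 0 passed the rule in the opposite direction. Only 0.367% of all genes read were higher there, so a count of 0 does not set them apart. On the higher side 11 genes were shared, 31.4% of the 35 and 33.3% of the 33 higher with fulvestrant over DMSO (0.367% of genes read). A further 18 of the 35 had the same sign without passing the rule, and 0 passed it in the opposite direction. The 107 lower genes had a median of -0.47 on top of neratinib, the contrast that chose them, and of -0.33 in the other pair. The 98 genes lower with fulvestrant over DMSO had a median of -0.44 in that pair, which chose them, and of -0.39 on top of neratinib. In each case the median was larger in size in the contrast that chose the genes. SLC6A14, an amino acid transporter picked after its values were seen, was among the genes lower by more without neratinib. It had -0.99 [-1.15, -0.83] on top of neratinib and -1.87 [-2.06, -1.68] for fulvestrant over DMSO.

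Single genes of further lists also passed the rule. KRT19, a luminal keratin, stood at 2904, 2693, 1543 and 1106 CPM, with -0.48 [-0.49, -0.47] on top of neratinib and -0.11 [-0.12, -0.10] for fulvestrant over DMSO. KRT19 and ESR1 were the 2 lower genes of the 14 BT474 luminal markers (14.3%, beside 1.19% of all genes read), and 0 were higher. EGLN3, an oxygen-sensing prolyl hydroxylase, was at 15.6 and 10.7 CPM, -0.54 [-0.66, -0.42]. It was the 1 lower gene of 27 glycolysis and hypoxia genes read (3.70%, beside 1.19% of all genes read). TIPARP, a target of the aryl hydrocarbon receptor, had -0.37, and the noncoding snoRNA host SNHG15 had -0.35, but -0.26 and below the size rule as a mean over cells. SESN1, a sestrin, was higher at 0.34, but at 0.17 in the low-mitochondrial cells. Lists of heat shock chaperones (19 genes read) and interferon and antigen presentation (12) had 0 genes past the rule. Over all genes read 1.58% passed it in either direction, so a count of 0 does not set lists this small apart. The BCL2 family (16), p53 target (19), ATF4 target (28), unfolded protein response (24) and FOXO target (30) lists had at most 1 gene past it in each direction, with medians from -0.02 to 0.05. In these lists 1 gene was from 3.33% (FOXO targets) to 6.25% (BCL2 family), beside 1.19% lower and 0.389% higher of all genes read. A count of 1 does not set lists this small apart.

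Cell cycle genes differed little as transcripts, while the assigned phases differed slightly. With every cell thinned to 5000 UMIs, 14.9% [13.8, 16.2] of neratinib cells and 17.7% [16.5, 19.0] of both-drug cells scored as S phase, with exact binomial intervals for counting error. For G2M the shares were 28.1% [26.6, 29.6] and 24.9% [23.6, 26.4], and for G1 57.0% and 57.3%. Without thinning, S was 15.8% and 18.5% and G2M 26.6% and 23.1%. Fulvestrant over DMSO ran in the same direction in thinned cells, but with overlapping intervals. With fulvestrant and with DMSO, S was at 21.95% [20.6, 23.4] and 20.3% [19.1, 21.5]. G2M was at 24.0% [22.6, 25.5] and 25.8% [24.5, 27.2].

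Of 41 S phase genes read, 1 was higher (2.44%, beside 0.389% of all genes read) and 0 lower, with a median of 0.08. Of 53 G2M genes 1 was lower (1.89%, near the 1.19% of all genes read) and 0 higher, with a median of -0.13. The lower gene was CENPA, the centromeric histone, at -0.34 [-0.41, -0.28]. The higher gene was DTL. With both libraries given the same phase weights, CENPA was at -0.23 and DTL at 0.28, both below the size rule. The list medians were then -0.06 for G2M and 0.04 for S. In the cells with at most 20% mitochondrial UMIs, G2M shares were higher in both libraries, at 38.4% and 34.4%. The phase calls rest on the same transcripts and do not show by themselves that cells cycled.

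MYC and the other leading genes also differed in how many cells showed a UMI. A MYC UMI was found in 24.1% [22.6, 25.5] of neratinib cells thinned to 5000 UMIs and in 2.89% [2.38, 3.48] of both-drug cells, or 59.0% and 11.7% without thinning. TSKU was found in 20.1% and 4.11% of thinned cells, PGR in 49.5% and 32.7%, and INSIG1 in 13.5% and 19.4%. Every cell here is of the same line, so no cell type that lacks these genes was at hand, and near-empty barcodes of 10 to 100 UMIs served as the measure of free RNA. In them MYC was at 70.6 CPM with neratinib and 5.62 with both drugs, close to the levels in cells, so the part of free RNA in the shares was not tested. Of the 107 lower genes 98 had the same sign in near-empty barcodes, and of the 35 higher genes 23. The interval was off 0 with that sign for 56 of the 107 and 6 of the 35, and with the opposite sign for 0. The share with the same sign over all genes read was not counted.

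MYC, AREG, RARA, MSX2, PMAIP1 and INSIG1 kept their sign in every phase and mitochondrial bin, with some spread in size. These groups are parts of the same cells whose sums ranked the genes. MYC had -3.48 [-3.67, -3.29] in G1, -2.93 [-3.21, -2.65] in S and -3.44 [-3.68, -3.20] in G2M. In cells with up to 20%, 20 to 30% and 30 to 50% mitochondrial UMIs it had -3.31, -3.39 and -3.37, the last from only 106 and 94 cells. In that small bin TPRN had the opposite sign to its other groups of cells, at -0.28 [-1.21, 0.65]. PMAIP1 was under the size rule there, at -0.30 [-1.11, 0.52], and both intervals span 0. BRD8 was past the size rule in that bin, at -0.54 [-1.04, -0.04], where 296 of all 9000 genes read were lower. It had 0.05 [-0.04, 0.13] at up to 20% and -0.03 [-0.10, 0.05] at 20 to 30% mitochondrial UMIs. AREG was lower by more in G1, at -1.96 [-2.16, -1.76], than in S, at -0.95 [-1.19, -0.72], and PMAIP1 had -1.55 and -0.84 in the same phases.

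RARA was lowest in G2M, at -2.16 [-2.47, -1.86] against -1.32 [-1.50, -1.14] in G1, and MSX2 had -1.66 and -1.09. INSIG1 was nearly even, with 0.55, 0.57 and 0.62 in G1, S and G2M. The estrogen target list had 28, 22 and 25 lower genes of 56 in G1, S and G2M, beside 135, 183 and 166 lower of all 9000, and 1 target was higher in S. The sterol list had 6, 7 and 3 higher of 27, beside 77, 198 and 130 higher of all 9000. Phases come from scores with cutoffs, so these are ranges of cells and not types, and each value is again 1 library a side.

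**Figure D4:**
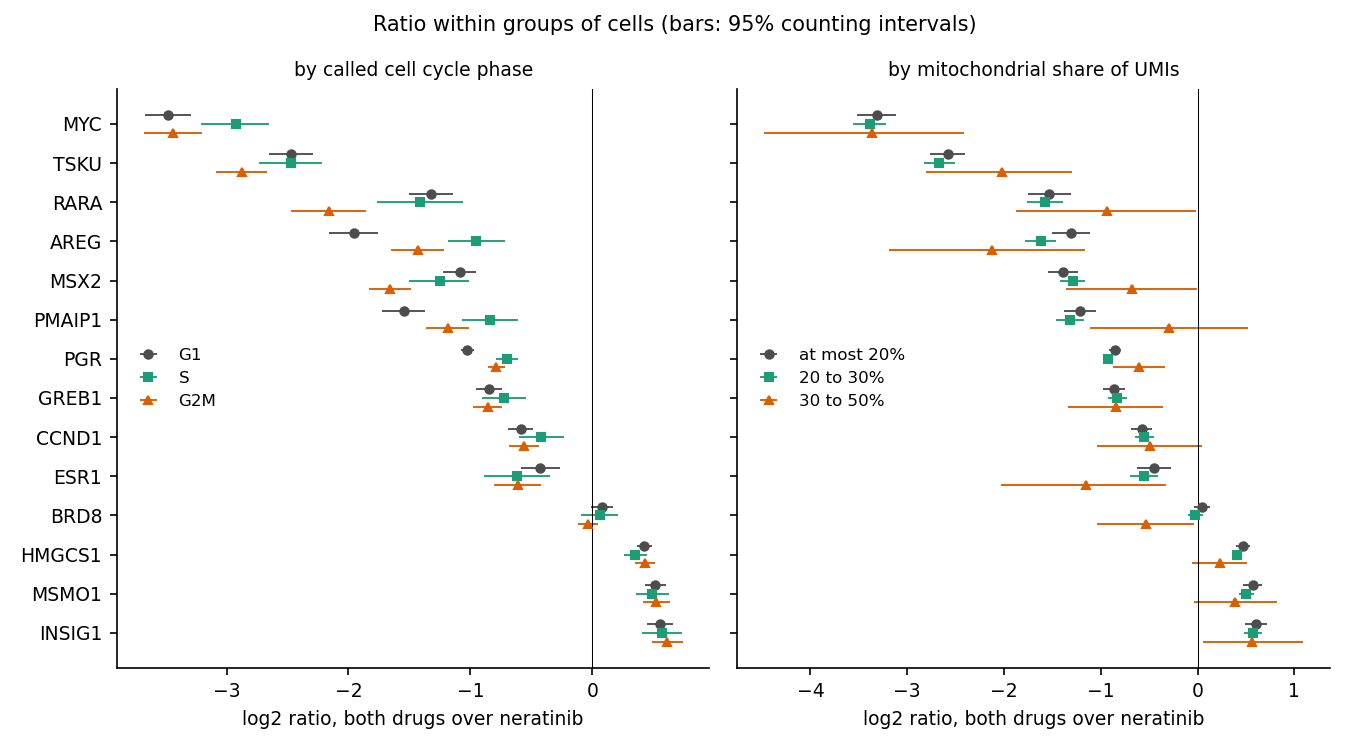
Log2 ratio of both drugs over neratinib for the leading genes, by assigned phase in 1 panel and by mitochondrial share in the other, with bars for 95% counting intervals. MYC stays between -3.48 and -2.93 across phases, AREG ranges from -1.96 in G1 to -0.95 in S, and INSIG1 stays near 0.6.

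Some of the lower genes were neighbours on a chromosome, a pattern looked for after the values were seen. Along the gene order of GENCODE v29, 8971 of the 9000 genes were placed. The 107 lower genes fell into 77 single genes, 9 pairs and 3 longer runs. The 34 placed higher genes were all single. How many runs the same number of randomly drawn genes would form was not counted for either direction. The higher genes were also fewer, so their lack of runs does not set them apart from the lower genes. The longest run held 6 consecutive genes read on chromosome 6, with ESR1 among them: ZBTB2 (-0.61), RMND1 (-0.38), ARMT1 (-0.46), CCDC170 (-0.35), ESR1 (-0.52) and SYNE1 (-0.45). The genes read on either side, LRP11 and FBXO5, had 0.02 and -0.06. For fulvestrant over DMSO the 6 had -0.33, -0.35, -0.40, -0.19, -0.29 and -0.14 in the same order.

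ARMT1 was the most abundant of the run, at 83.2, 62.9, 55.5 and 40.3 CPM. A second run on chromosome 6 held TPBG, an oncofetal membrane glycoprotein, with UBE3D and DOPEY1, at -0.71, -0.50 and -0.48. The third, on chromosome 9, held SUSD3, CARD19 and NINJ1, at -0.53, -0.42 and -0.35. MYC was paired with its noncoding neighbour PVT1, and KRT19 with KRT15. Counting by strand was not given in the sources used here, so reads shared between overlapping neighbours cannot be told apart.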

How the data were processed

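The authors deposited 1 matrix of whole-number UMI counts of 33538 genes for all barcodes, and the submitters' processing notes name Cell Ranger 3.1.0 and hg19. Since the gene identifiers resemble a later build, no coordinates were taken from the matrix. In the sources used here it is not said whether read depth was evened between libraries. Barcodes were assigned to libraries by their final digit, taken as the digit that opens a sample title. Counts were summed over cells per library and divided by the sum to give CPM (python 3.11.15, numpy 2.4.6, scipy 1.17.1, scanpy 1.11.5 for phases). Log2 ratios carry 95% exact conditional binomial intervals. Doublets were not called and all cells were kept. The ratio code was tested on simulated data.

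The text names MYC, CCND1, ESR1, PGR, GREB1, TFF1, ERBB2 and BRD8, the 14 highest and 14 lowest ratios at a mean of at least 10 CPM (mitochondrial and ribosomal protein genes left out, interval off 0), up to 4 members per list past the size rule, and list members that show a range. The pair, the lists and the motifs were chosen with earlier results of these data known. Of 33 lists, those not described had at most 1 gene past the rule in a direction. Cell filters, scaling, expression filters and the size rule were varied. Some named genes are not reported here.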

Additional observations from a re-analysis of the deposited data

How the results depend on the processing

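With 1 library a group, replicate variation is unknown and the intervals cover counting error only. No paired analysis was possible because each group is 1 library. The count of higher genes, 35, was 113 with a 20% mitochondrial ceiling, which left fewer cells. It was 212 at a mean of at least 1 CPM, 6 at 20 CPM, 434 with no filter on low values and 0 at 1.5-fold. The count of lower genes, 107, was 239, 41, 411 and 35 under the last 4 of these settings. Under the other cell filters, scalings and means over cells or phases, the counts ran from 32 to 47 higher and from 107 to 126 lower, and the 20% ceiling gave 133 lower. The 20% ceiling also moved 10 of 50 named genes outside their intervals, STC2 by most, and ME2, SESN1 and DLX3 were among the named genes under the size rule there. ME2 was also under it at 0.31 without cells above 2 times the median UMIs, 0.25 as a mean over cells and 0.319 with phases weighted equally, while CRIP1 passed it at 0.33, 0.34 and 0.33 under the same settings. No value changed sign past the size rule. The cause of these shifts was not tested.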
